A study of Mus musculus with 4 samples.

Results

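The 34 genes described here encode the regulators and the working parts of skeletal muscle: 5 myogenic transcription factors, 18 contractile and cytoskeletal proteins, 6 proteins of the acetylcholine receptor and its synapse, 4 proteins of calcium release and energy supply, and a muscle cadherin. They were taken by symbol from a list of muscle genes, out of 24971 genes in the count files, with earlier results of these data known. They were followed in RNA-seq counts from 4 libraries of C57BL/6 mouse neural tube at E12.5, in mid-gestation. WT libraries 1 and 2 carried the genotype label WT, and Lbx1Δ/Δ libraries 1 and 2 were labelled with the Lbx1 deletion on both alleles. Per the labels' protocols, tubes of 1 genotype from 1 litter made up a library, so each value is that of a pool of embryos, with 2 libraries per label. The labels leave out which sequence the deletion removes, the number of tubes in a pool, and whether libraries that share a replicate number came from 1 litter. Where a pair of values is given for a label, library 1 comes first.

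Skeletal muscle forms from the somites that lie beside the neural tube. Precursor cells that express Pax3 and Pax7 give rise to myoblasts, in which the myogenic factors Myf5 and Myod1 set the muscle fate and Myog drives differentiation together with MEF2 factors. Differentiating cells fuse into myotubes and switch on sarcomere genes, beginning with embryonic and heart-type isoforms, and the acetylcholine receptor genes whose products motor axons will later contact. Lbx1 itself is known both in dorsal spinal interneurons and in muscle precursors that migrate into the limb.

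Of the 22 tested members 17 had the same order of levels over the libraries, and the 250 bases before the annotated start of 5 of them are shown for that reason, from the RefSeq table of GRCm38.p6, 5′ to 3′ along the gene. Capitals mark each match to CANNTG, the E-box that myogenic factors bind. The regulator Myog (chr1:134289754-134290003 on the plus strand), the embryonic myosin Myh3 (chr11:67078050-67078299 on the plus strand) and the receptor subunits Chrna1 (chr2:73580339-73580588 on the minus strand) and Chrng (chr1:87205561-87205810 on the plus strand) stand for 3 roles, and Ryr1 (chr7:29125152-29125401 on the minus strand) for a member that differed little between genotype labels within either replicate number.
Myog: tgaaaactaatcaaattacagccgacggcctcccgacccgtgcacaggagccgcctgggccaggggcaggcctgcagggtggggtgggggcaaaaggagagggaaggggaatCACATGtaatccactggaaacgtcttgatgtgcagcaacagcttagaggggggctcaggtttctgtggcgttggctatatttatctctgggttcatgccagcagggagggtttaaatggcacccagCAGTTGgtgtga
Myh3: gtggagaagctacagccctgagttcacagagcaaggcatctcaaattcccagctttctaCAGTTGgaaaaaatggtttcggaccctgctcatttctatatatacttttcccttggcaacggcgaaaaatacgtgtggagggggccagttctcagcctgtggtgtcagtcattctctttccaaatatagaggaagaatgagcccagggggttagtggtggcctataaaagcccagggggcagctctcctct
Chrna1: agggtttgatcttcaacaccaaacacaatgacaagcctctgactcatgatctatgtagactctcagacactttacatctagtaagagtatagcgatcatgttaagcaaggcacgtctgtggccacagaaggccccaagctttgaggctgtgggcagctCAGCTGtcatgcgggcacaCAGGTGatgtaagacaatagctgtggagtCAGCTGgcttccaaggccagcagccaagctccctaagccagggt
Chrng: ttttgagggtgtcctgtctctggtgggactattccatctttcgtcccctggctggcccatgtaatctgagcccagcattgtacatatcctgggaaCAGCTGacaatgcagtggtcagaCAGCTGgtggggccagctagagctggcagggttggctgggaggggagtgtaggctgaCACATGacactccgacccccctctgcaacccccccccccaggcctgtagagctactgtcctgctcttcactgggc
Ryr1: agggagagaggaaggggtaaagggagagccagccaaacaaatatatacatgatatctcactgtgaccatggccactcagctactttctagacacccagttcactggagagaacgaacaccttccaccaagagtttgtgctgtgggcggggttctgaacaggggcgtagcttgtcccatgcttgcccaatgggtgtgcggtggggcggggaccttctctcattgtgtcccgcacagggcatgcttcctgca
Promoters of 27 of the 34 members were in the table, 32 sequences in all because some genes have several starts. A CANNTG match on either strand was present in 27 of these 32, against 66.2% of all 32851 promoters of that length. CAGCTG, which is contained in CANNTG, was present in 12 of the 32 against 13.0%, and TATAAA in 8 against 12.4%. The MEF2 consensus was present in 3 against 2.92%. Of the 32 sequences 16 belong to tested members, with CANNTG in 13, CAGCTG in 5, TATAAA in 4 and the MEF2 consensus in 2. Windows of Myh7 and of Tnni1 overlap, so the 32 sequences are not independent. Chrna1 and Chrng each had 3 E-boxes of which 2 were CAGCTG, Myog had 2 and Myh3 had 1. No E-box letters lay in the window shown for Ryr1, and these matches are descriptions of sequence only.

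Library totals were 16853984 to 20579803 counts. Levels are given as CPM, read counts scaled to the total of each library, and the bound used for 0 counts, 3 counts in a library, corresponds to 0.146 to 0.178 CPM. Intervals and bounds cover counting error only, since reads without molecular identifiers are not independent molecules. Lbx1 had 819 and 1379 counts in the WT libraries and 1946 and 6520 in those labelled Lbx1Δ/Δ. These counts run against the label, and whether the counted exons lie in the deleted sequence is not known here, so every direction below is by label. The neural tube markers Tubb3 and Stmn2, of neurons, were at 1766 to 3748 CPM and 845 to 1677 CPM. Of 11 neural tube markers 10 had counts, 9 in every library, and 7 had enough counts to be tested. Of 10 heart markers, Myh6, Myl3, Nppb and Mybpc3 were listed at 0 in all 4 libraries. For Myh6, Myl3 and Nppb the 0 is not read as absence, for the reason given below for the members.

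Of the 34 members, 10 were listed at 0 in every library. These were the myogenic cofactor Mef2c, the heart-type myosin heavy chain Myh7, the atrial and embryonic light chain Myl4, the troponins Tnni1, Tnnt1, Tnnt2 and Tnnt3, the synapse-organising kinase Musk, the calcium channel Cacna1s and the calcium store protein Casq2. All 10 had several RefSeq accessions, 18 in the case of Mef2c. Counts were deposited per accession, and Gapdh, a glycolytic enzyme of every cell with 2 accessions, had 3 to 10 counts per library. Over all genes, 38.9% of 7924 with several accessions and 30.2% of 17047 with 1 accession were at 0 in all libraries. A value of 0 for these members is therefore given as listed and not read as absence. The other 4 members with several accessions were Acta1, Myl1, Mylpf and Ttn, whose values are uncertain for the same reason. Acta1, the skeletal actin, had 0 and 1 counts under the WT label and 2 and 5 under the Lbx1Δ/Δ label, and Ckm, the muscle creatine kinase, had 4, 2, 6 and 1. These 2 were below the filter on low counts, and 22 members were tested.

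Across the 22 tested members, levels were spread in much the same way over the 4 libraries. In 17 of them the level was lowest in Lbx1Δ/Δ library 2, followed by WT library 2, Lbx1Δ/Δ library 1 and WT library 1, an order that 14.2% of the 10757 tested genes had. Lbx1Δ/Δ library 2 was the lowest of the 4 in 21 of the 22, against 32.1% of tested genes. Summed over the 34 members, the level was 1232 CPM in WT library 1, 1064 CPM in Lbx1Δ/Δ library 1, 609 CPM in WT library 2 and 215 CPM in Lbx1Δ/Δ library 2. In pooled tissue, fewer muscle cells and less muscle RNA per cell cannot be told apart.

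**Figure D1:**
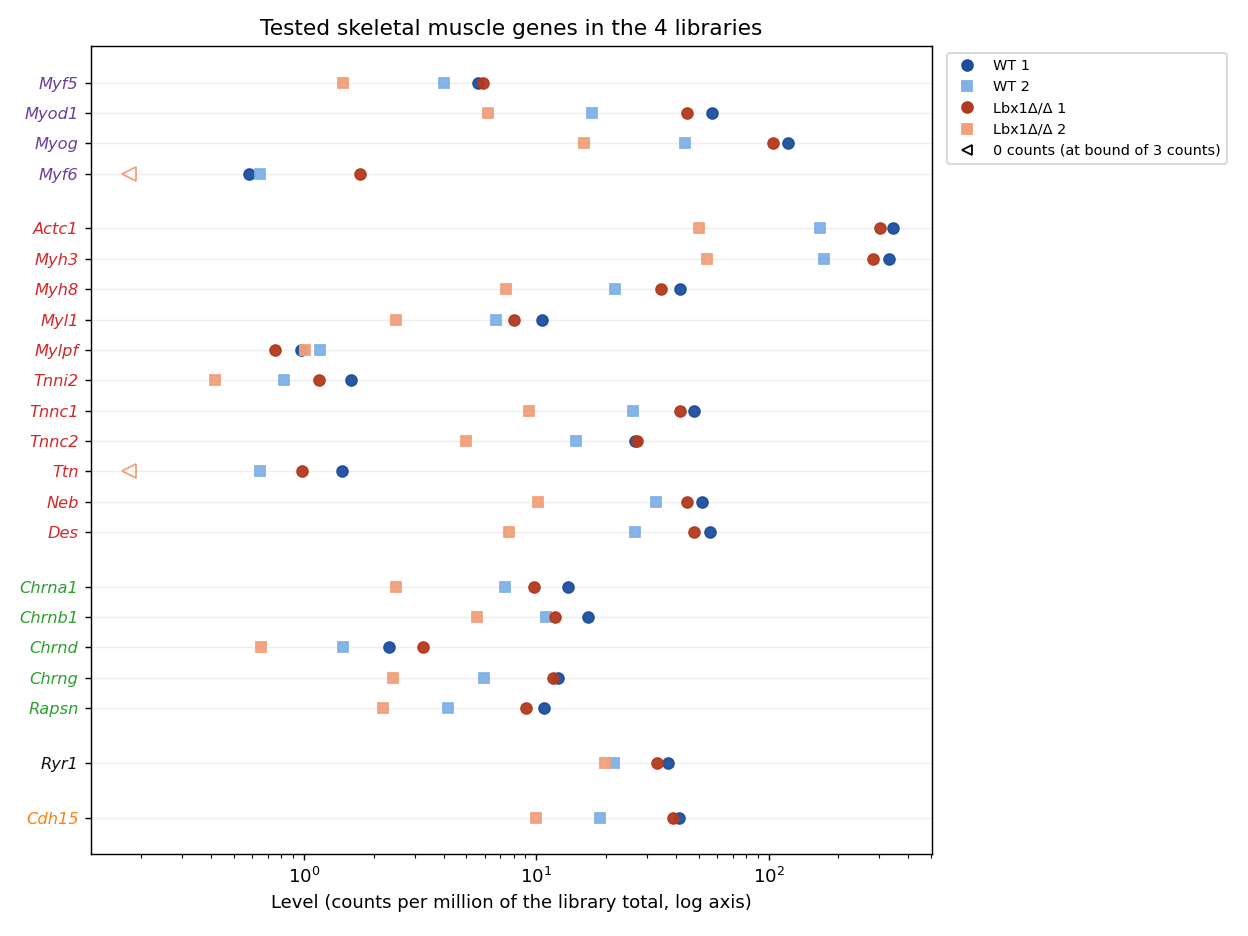
Levels of the 22 tested members in the 4 libraries, in CPM on a log axis, with 1 point per library and gene names coloured by role. Squares (number 2) lie to the left of circles (number 1) for 20 of the 22 genes, and open triangles mark 0 counts drawn at 3 counts.

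The myogenic factors come before the contractile genes in the muscle programme. Myod1, which commits cells to muscle, had 57.1 and 17.3 CPM under the WT label and 44.7 and 6.23 CPM under the Lbx1Δ/Δ label. Myog, the factor of terminal differentiation, had 121 and 43.5 CPM under the WT label and 104 and 16 CPM under the Lbx1Δ/Δ label. For both, the number 2 libraries were below the number 1 libraries whatever the label, and the ranges of the genotype groups overlapped. Myf5, the earliest myogenic factor in the somite, had 5.64 and 4.01 CPM under the WT label and 5.91 and 1.48 CPM under the Lbx1Δ/Δ label. Its levels in the number 1 libraries were close, and its Lbx1Δ/Δ library 2 was the lowest. Myf6, a factor of differentiating and mature fibres, had 12 and 11 counts under the WT label and 30 and 0 under the Lbx1Δ/Δ label. It was at least 3.65-fold lower in Lbx1Δ/Δ library 2 than in WT library 2 (bound at 3 counts per library), but 2.98-fold higher in Lbx1Δ/Δ library 1 than in WT library 1 (95% exact interval 1.48 to 6.4). Myf6 thus had opposite differences in the separate numbers, on few counts.

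The contractile members build the sarcomere. Myh3, the embryonic myosin heavy chain, had 330 and 174 CPM under the WT label and 281 and 54.2 CPM under the Lbx1Δ/Δ label. Actc1, the cardiac actin that embryonic skeletal muscle also uses, had 345 and 167 CPM under the WT label and 301 and 50.4 CPM under the Lbx1Δ/Δ label. Both had Lbx1Δ/Δ library 2 far below the others, with the number 1 libraries close to each other. Myh8, the perinatal myosin heavy chain that lies in the same gene cluster as Myh3, had 41.4 and 21.8 CPM under the WT label and 34.4 and 7.42 CPM under the Lbx1Δ/Δ label. Reads of near-identical myosin or actin paralogues cannot be told apart further from these counts. The thin filament ruler Neb had 51.8 and 32.9 CPM under the WT label and 44.5 and 10.1 CPM under the Lbx1Δ/Δ label, and the intermediate filament gene Des at 55.9, 26.6, 48.0 and 7.65 CPM in the same order. They had the order of levels seen for Myh3.

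Troponins make contraction depend on calcium. Tnnc1, the slow and cardiac calcium-binding troponin, had 48.0 and 26.1 CPM under the WT label and 41.7 and 9.32 CPM under the Lbx1Δ/Δ label. Tnnc2, its fast-fibre counterpart, had 26.5 and 14.8 CPM under the WT label and 27.2 and 4.98 CPM under the Lbx1Δ/Δ label, so that the number 1 libraries were nearly level. Tnni2, the fast inhibitory subunit, had 33 and 14 counts under the WT label and 20 and 7 under the Lbx1Δ/Δ label. The giant spring protein gene Ttn had 30 and 11 counts under the WT label and 17 and 0 under the Lbx1Δ/Δ label, at least 3.65-fold lower in Lbx1Δ/Δ library 2 than in WT library 2. The light chain Myl1 had 10.6 and 6.73 CPM under the WT label and 8.06 and 2.49 CPM under the Lbx1Δ/Δ label. Mylpf, the fast regulatory light chain, was the exception among the contractile members, with 20 and 20 counts under the WT label and 13 and 17 under the Lbx1Δ/Δ label. It was the tested member that was not lowest in Lbx1Δ/Δ library 2 and the 1 with a higher fitted level in number 2.

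The acetylcholine receptor of fetal muscle is built from the products of Chrna1, Chrnb1, Chrnd and Chrng, and rapsyn, from Rapsn, clusters it. Chrna1 had 13.7 and 7.32 CPM under the WT label and 9.80 and 2.49 CPM under the Lbx1Δ/Δ label. Chrng, the fetal subunit that is later replaced, had 12.4 and 5.96 CPM under the WT label and 11.8 and 2.43 CPM under the Lbx1Δ/Δ label. The groups overlapped by genotype for both genes and did not overlap by number. Chrnb1 had 16.7 and 11 CPM under the WT label and 12.1 and 5.58 CPM under the Lbx1Δ/Δ label. Chrnd had 48 and 25 counts under the WT label and 56 and 11 under the Lbx1Δ/Δ label, and Rapsn had 223 and 71 and then 156 and 37. Chrnd was the highest in Lbx1Δ/Δ library 1, unlike the other 4.

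Calcium release and cell adhesion were each covered by 1 tested member. Ryr1, the calcium release channel of the sarcoplasmic reticulum, had 36.9 and 21.5 CPM under the WT label and 33.2 and 19.8 CPM under the Lbx1Δ/Δ label. Libraries of the same number were thus close for Ryr1. Cdh15, the M-cadherin of myoblasts and satellite cells, had 41.3 and 18.8 CPM under the WT label and 38.9 and 9.97 CPM under the Lbx1Δ/Δ label. Its Lbx1Δ/Δ library 2 was the lowest, as for most members.

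No member was called by genotype label in edgeR's quasi-likelihood test, which asked whether the WT and Lbx1Δ/Δ libraries differed beyond the spread within each label. That spread includes any difference between the replicate numbers. A fit with a replicate block is given in the last section. Of the 22 tested members 20 had lower fitted levels in the libraries labelled Lbx1Δ/Δ, as did 50.5% of all tested genes, with a median log2 difference of −0.54 against −0.0026 over all 10757 tested genes, and 0 passed an adjusted p of 0.05. Over all genes 0% were called, 55 genes (0.511%) and 0 members had an unadjusted p below 0.05, and DESeq2 also called 0 genes. The lowest unadjusted p of the members was that of Chrnb1, with 13.9 ± 3.98 CPM under the WT label and 8.82 ± 4.58 CPM under the Lbx1Δ/Δ label (SD, n = 2 each), a log2 difference of −0.66 (SE 0.48, edgeR adjusted p = 0.9998). Myh3 was at 252 ± 110 CPM and 168 ± 160 CPM (SD, n = 2 each), a log2 difference of −0.59 (SE 0.81, edgeR adjusted p = 0.9998). Myod1 had a log2 difference of −0.55 (SE 1.04), and the differences of the contractile members ran from −1.10 for Ttn to −0.30 for Mylpf. Myf6 and Chrnd had higher fitted levels, 0.50 (SE 1.47) and 0.03 (SE 0.82). In 0 of the 22 were both Lbx1Δ/Δ libraries below both WT libraries, against 9.31% of tested genes. The median of the 22 members turned to 0.03 without WT library 1 and to 0.20 without Lbx1Δ/Δ library 2, and was −2.04 without Lbx1Δ/Δ library 1 and −0.94 without WT library 2.

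Within number 1 the libraries differed little by label, and within number 2 the library labelled Lbx1Δ/Δ was lower for every tested member. The median log2 difference of the members was −0.22 within number 1 and −1.46 within number 2, against 0.0034 and 0.0081 over all tested genes. Of the 22 members 18 were lower within number 1, against 49.5% of tested genes, and 22 within number 2, against 49.1%, and 18 were lower within both, as were 28.9% of tested genes. The difference was more negative within number 2 in 20 members, against 50.9% of tested genes, the exceptions being Mylpf and Ryr1. With 1 library per label and number there is no residual spread, so whether the differences of the separate numbers differ was not tested. By counting error alone, the exact interval of the ratio between Lbx1Δ/Δ and WT lay below 1 for 11 members within number 1 and for 19 within number 2. Within number 1 it was above 1 for Myf6 alone. The same count was not made over all tested genes, so these counts have no background share and are not read as particular to the members.

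The size of the difference within number 2 varied among the members. Des had a ratio of Lbx1Δ/Δ to WT of 0.859 within number 1 (95% exact interval 0.785 to 0.940) and of 0.288 within number 2 (0.235 to 0.351). Actc1, Myh3 and Neb had ratios within number 2 of 0.301, 0.312 and 0.309, and Myh8, Tnnc1 and Tnnc2 of 0.340, 0.356 and 0.337. The factors Myod1 and Myog had 0.359 (0.285 to 0.450) and 0.368 (0.319 to 0.424), and Myf5 had 0.370 (0.224 to 0.593). Tnni2, on few counts, had 0.503 (0.172 to 1.33), and Myf6 had 0 counts in the library labelled Lbx1Δ/Δ. Chrna1 and Chrng had 0.341 and 0.408, whereas Chrnb1 and Rapsn had 0.505 and 0.524 and Cdh15 had 0.530 (0.437 to 0.640). Ryr1 was at 0.898 (0.804 to 1.002) within number 1 and 0.920 (0.791 to 1.07) within number 2. Mylpf, on few counts, was at 0.855 (0.421 to 1.72) within number 2. The intervals of Ryr1 and Mylpf within number 2 did not overlap that of Myh3 (0.289 to 0.336).

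**Figure D2:**
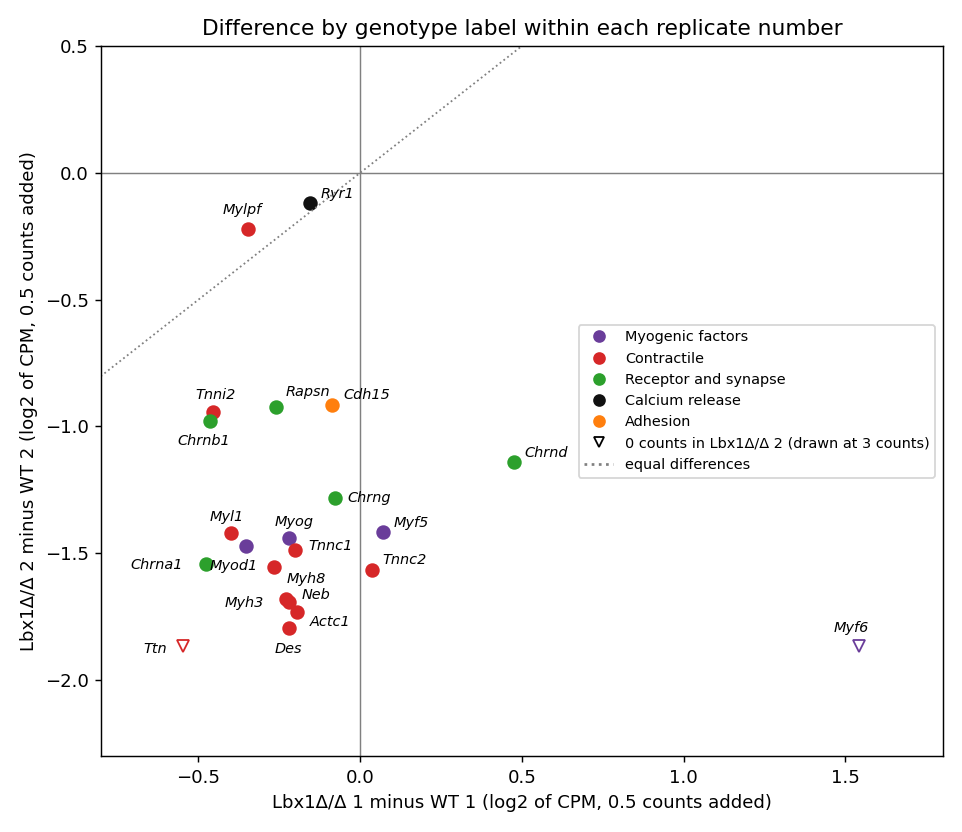
Log2 difference between the Lbx1Δ/Δ and the WT library of number 1 (horizontal axis) and of number 2 (vertical axis) for the 22 tested members, from CPM with 0.5 counts added, coloured by role. Of the points 20 lie below the dotted line of equal differences, Mylpf and Ryr1 lie above it, and open triangles mark Myf6 and Ttn, which had 0 counts in Lbx1Δ/Δ library 2 and are drawn at 3 counts.

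Replicate numbers were compared next. Each number held 1 WT and 1 Lbx1Δ/Δ library, so the spread within a number includes any difference by label. In the edgeR test of number 2 against number 1 over all 4 libraries, 13 of the 22 tested members were called lower and 0 higher, while 12.2% of tested genes were called lower and 13.3% higher. The fitted level was lower in 21 members, against 50% of tested genes, and the unadjusted p was below 0.05 in 18, against 38.3%. Both number 2 libraries were below both number 1 libraries in 20 members, against 31.9% of tested genes. Within each label separately 20 were lower, against 37.8%. The median log2 difference of the members was −1.42, against 0.00021 over all tested genes, and −0.91 between the WT libraries and −2.19 between those labelled Lbx1Δ/Δ. The labels do not say in what the numbers differ beyond that each is a replicate. The calls depended on single libraries, and so did the size of the difference. The median of the members by number was −0.81 without Lbx1Δ/Δ library 2 and −2.29 without WT library 2. DESeq2 called 7 members lower of 18 to which it gave an adjusted p. Its share over all genes is not given here, so this count is not read as particular to the members.

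By role, 2 of the 4 tested myogenic factors, 6 of the 11 contractile members, 3 of the 5 receptor and synapse members, Ryr1 and Cdh15 were called lower in number 2. Fitted levels were lower in number 2 for all 4 factors, 10 of the 11 contractile members and all 5 receptor and synapse members, against 50% of tested genes. Myod1 had the largest called difference, from 50.9 ± 8.80 CPM to 11.8 ± 7.86 CPM (SD, n = 2 each), a log2 difference of −2.13 (SE 0.37, edgeR adjusted p = 0.00316). Myog went from 113 ± 12.1 CPM to 29.8 ± 19.5 CPM (SD, n = 2 each), a log2 difference of −1.94 (SE 0.34, edgeR adjusted p = 0.00362). The called contractile members were Actc1, Myh3, Myh8, Tnnc1, Tnnc2 and Des, with log2 differences between −1.61 for Des and −1.35 for Tnnc1. Myh3 went from 305 ± 34.4 CPM to 114 ± 84.6 CPM (SD, n = 2 each), a log2 difference of −1.43 (SE 0.39, edgeR adjusted p = 0.0243), which was −0.81 without Lbx1Δ/Δ library 2 and −2.53 without WT library 2. Both called factors thus had larger differences than the called sarcomere genes, a contrast between genes that was not tested. Rapsn, Chrng and Chrna1 had log2 differences of −1.65, −1.54 and −1.27, and Cdh15 of −1.49 (SE 0.26, edgeR adjusted p = 0.00322). Ryr1 had the smallest called difference, −0.78 (SE 0.16, edgeR adjusted p = 0.00658), and nearly the same value within each label, −0.78 in WT and −0.74 in the libraries labelled Lbx1Δ/Δ. Among the 9 members that did not pass, Neb had −1.18 (edgeR adjusted p = 0.0566), Chrnd −1.40 (0.0542), Myf5 −1.08 (0.0861) and Mylpf 0.32 (0.67).

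Ratios of counts between members within a library do not depend on the library total and show how the proportions of the programme varied. The ratio of Myh8 to Myh3 was 0.126, 0.126, 0.122 and 0.137 in WT libraries 1 and 2 and Lbx1Δ/Δ libraries 1 and 2, with overlapping exact intervals. These myosins therefore kept their proportion while their levels ranged from 54.2 to 330 CPM for Myh3. The ratio of Myog to Myod1 was 2.12 (95% exact interval 1.98 to 2.28) and 2.51 (2.19 to 2.88) under the WT label and 2.33 (2.14 to 2.54) and 2.57 (2.05 to 3.25) under the Lbx1Δ/Δ label, again with overlap between labels. The ratio of Myh3 to Myog was 2.72 (2.59 to 2.84) and 2.70 (2.55 to 2.85) in the number 1 libraries of WT and Lbx1Δ/Δ. It was higher in those of number 2, at 3.99 (3.68 to 4.33) in WT and 3.38 (2.95 to 3.89) in Lbx1Δ/Δ. Myf5 to Myod1 likewise was 0.0986 and 0.132 in the number 1 libraries of WT and Lbx1Δ/Δ and 0.231 and 0.238 in those of number 2. Actc1 to Myog was 2.84 (2.71 to 2.97) and 3.84 (3.54 to 4.17) in WT libraries 1 and 2, and 2.89 (2.74 to 3.05) and 3.14 (2.74 to 3.62) with overlap in those labelled Lbx1Δ/Δ. Number 2 libraries thus had more Myh3 counts per Myog count under either label and more Actc1 per Myog under the WT label, while the intervals of Myf5 to Myod1 overlapped between the numbers under the Lbx1Δ/Δ label.

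Other proportions moved in Lbx1Δ/Δ library 2. Ryr1 to Myh3 was 0.112, 0.124 and 0.118 in WT libraries 1 and 2 and Lbx1Δ/Δ library 1 and 0.366 (0.322 to 0.415) in Lbx1Δ/Δ library 2. Cdh15 to Myh3 was 0.125, 0.108 and 0.138 in the same 3 libraries and 0.184 (0.155 to 0.217) in Lbx1Δ/Δ library 2. The Lbx1Δ/Δ library 2 intervals lay above those of the other libraries for both. Chrnb1 to Chrna1 was 1.22, 1.51 and 1.23 in those 3 libraries and 2.24 (1.54 to 3.30) in Lbx1Δ/Δ library 2, where the interval overlapped that of WT library 2. Each of these compares single libraries and has no replicate check.

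**Figure D3:**
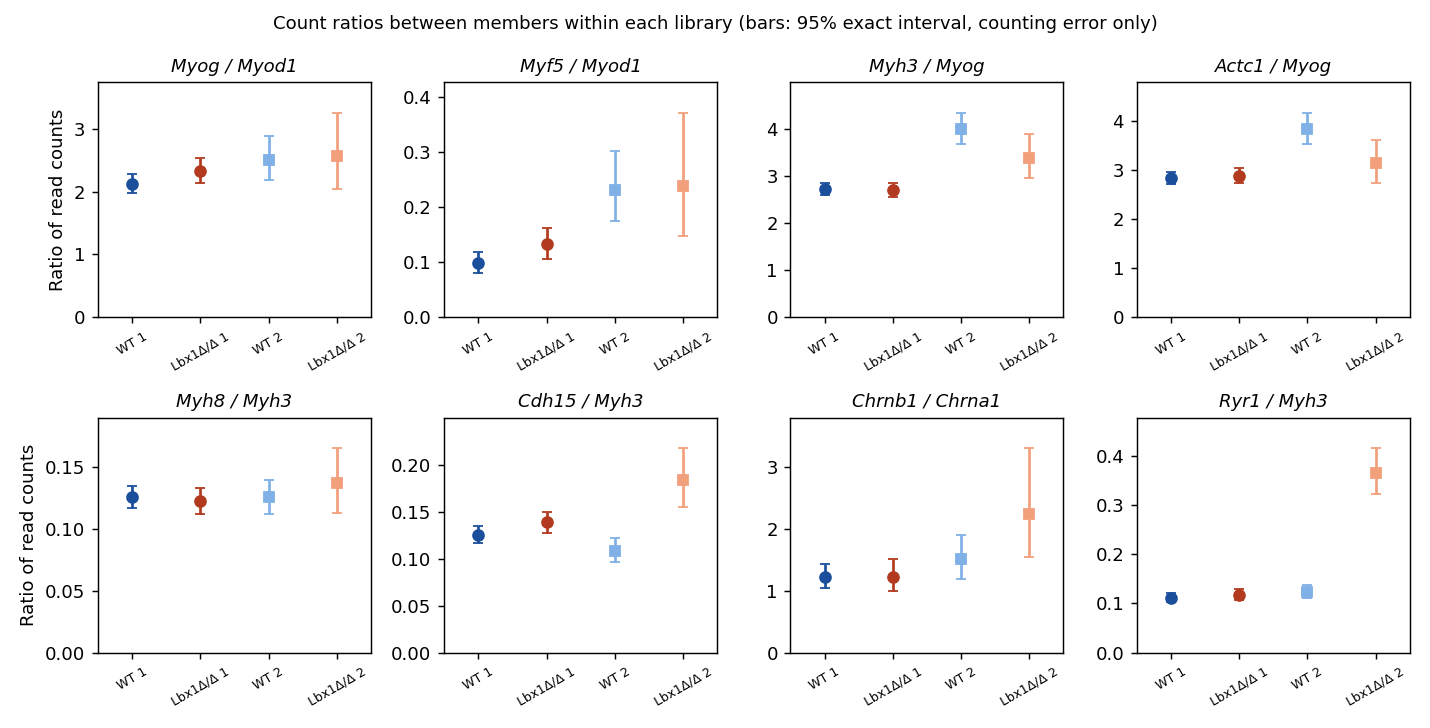
Ratios of read counts between 8 pairs of members within each library, with number 1 as circles, number 2 as squares, and bars for the 95% exact binomial interval of counting error. Myh8 to Myh3 stays between 0.122 and 0.137, Myh3 to Myog is higher in both number 2 libraries, and Ryr1 to Myh3 is 0.366 in Lbx1Δ/Δ library 2 against 0.112 to 0.124 in the others.

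Genes of the muscle precursors, upstream of the members, did not share a single pattern. Of 12 precursor genes 8 were tested, and 0 passed the genotype test. By number 4 were called lower and 0 higher in number 2, against 12.2% and 13.3% of all tested genes. Pax7, a factor of muscle progenitors and of the dorsal neural tube, had 37.0 and 30.2 CPM under the WT label and 44.9 and 34.2 CPM under the Lbx1Δ/Δ label, and Pax3 at 7.14, 8.91, 8.17 and 9.43 CPM in the same order. The receptor Met, which migrating muscle precursors need, had 27.3 and 37.4 CPM under the WT label and 27.8 and 33.2 CPM under the Lbx1Δ/Δ label. These 3 did not share the low value of the members in Lbx1Δ/Δ library 2. Which cells their reads came from was not tested, so their values are not read as those of muscle precursors alone. The values of Pax3, and of Six4 below, are uncertain for the reason given for Myl1 and Ttn. The somite factors Meox1 and Meox2 did fall from number 1 to number 2, by log2 differences of −1.97 (SE 0.31) and −1.58 (SE 0.20), with edgeR adjusted p-values of 0.00193 and 0.00083. Meox1 had 56.7 and 21.0 CPM under the WT label and 60.3 and 9.20 CPM under the Lbx1Δ/Δ label. Six4, a homeobox factor that acts upstream of the myogenic factors, had 45.8 and 24.7 CPM under the WT label and 39.2 and 20.9 CPM under the Lbx1Δ/Δ label. It fell from number 1 to number 2 by a log2 difference of −0.92 (SE 0.17, edgeR adjusted p = 0.00394), and its difference by label was −0.24 (SE 0.46).

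Of 35 further skeletal muscle genes outside the members 23 were tested, 21 had lower fitted levels in the libraries labelled Lbx1Δ/Δ, against 50.5% of all tested genes, with a median log2 difference of −0.38, and 0 passed the genotype test. By number 14 were called lower and 1 higher, against 12.2% and 13.3% of all tested genes, with a median of −1.42. Sln, a regulator of the calcium pump, Tpm2, a tropomyosin, and Klhl40, a stabiliser of thin filaments, had log2 differences by number of −1.64, −1.44 and −1.61 (edgeR adjusted p = 0.00438, 0.00485 and 0.00819). Klhl41, Pygm and Actn3 had −1.68, −1.11 and −1.03. Dmd, which encodes dystrophin, was called higher in number 2, with 2.96 and 5.43 CPM under the WT label and 2.78 and 10.1 CPM under the Lbx1Δ/Δ label. The values of Dmd and Tpm2 are uncertain for the reason given for Myl1 and Ttn. By label, Cav3, a caveolin of the muscle membrane, had the smallest p of this list, with 52 and 22 counts under the WT label and 17 and 5 under the other (log2 −1.58, SE 0.74, edgeR adjusted p = 0.9998). Myot, Myom2 and Actn2, of the sarcomere's Z-disc and M-band, had log2 differences by label of −1.15, −0.77 and −0.77, none past the test.

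Markers of other tissues also varied between the libraries, and their part in the muscle values was not tested. Summed levels of 7 smooth muscle markers were 309, 239, 151 and 104 CPM in WT library 1, Lbx1Δ/Δ library 1, WT library 2 and Lbx1Δ/Δ library 2. Acta2, the smooth muscle actin, made up most of these sums, with 4443 of 6359 counts in WT library 1. By gene, 3 of the 5 tested smooth muscle markers were lower and 2 higher in the Lbx1Δ/Δ library within number 2, with a median log2 difference of −0.02. Those of 3 tendon markers were 43.9, 31.1, 30.3 and 16.6 CPM and those of 8 surface ectoderm markers 151, 116, 96.3 and 60.7 CPM in that order. The 12 mesenchyme and cartilage markers were at 6435, 4567, 4836 and 4300 CPM, sums made up mostly of the collagens Col1a1, Col1a2 and Col3a1. Of this list 8 of 10 tested markers were lower within number 2, with a median log2 difference of −0.22. Twist1 and Prrx1 are mesenchymal transcription factors named after their values were seen. They had the order of the muscle members, which 4 of the 10 tested markers of this list had in all, against 14.2% of tested genes. Their levels were 185, 164, 90.6 and 41.1 CPM for Twist1 and 47.7, 37.7, 29.2 and 14.5 CPM for Prrx1. Summed neural tube markers went the other way, from 4612 and 5014 CPM in the number 1 libraries of WT and Lbx1Δ/Δ to 7157 and 8286 CPM in those of number 2. Of the 7 tested neural tube markers 4 were called higher by number, against 13.3% of all tested genes. These were Tubb3, Stmn2, Elavl3 and Map2, which are genes of neurons. The progenitor markers Nes, Sox2 and Sox1 had log2 differences of −0.14, 0.18 and 0.13 and were not called. All but Tubb3, Stmn2 and Nes were named after their values were seen, and a contrast between neuron and progenitor markers was not tested. Motor neuron markers were at 209 and 222 CPM in the number 1 libraries of WT and Lbx1Δ/Δ and at 321 and 362 CPM in those of number 2. Between Lbx1Δ/Δ and WT within number 2, the summed ratio was 0.314 for the contractile members, 0.362 for the myogenic factors, 0.497 for the further skeletal muscle genes, 0.546 for tendon, 0.630 for surface ectoderm, 0.684 for smooth muscle and 0.889 for mesenchyme and cartilage. Within number 1 the ratios were 0.864, 0.848, 0.845, 0.709, 0.768, 0.774 and 0.710 in that order. Among these lists the skeletal muscle ratios were thus the lowest within number 2 and the highest within number 1. Each ratio compares single libraries. Heart markers, whose sum was 8.93 to 23.5 CPM, were mostly Ryr2, which was at 5.91 to 19.9 CPM and higher in number 2.

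**Figure D4:**
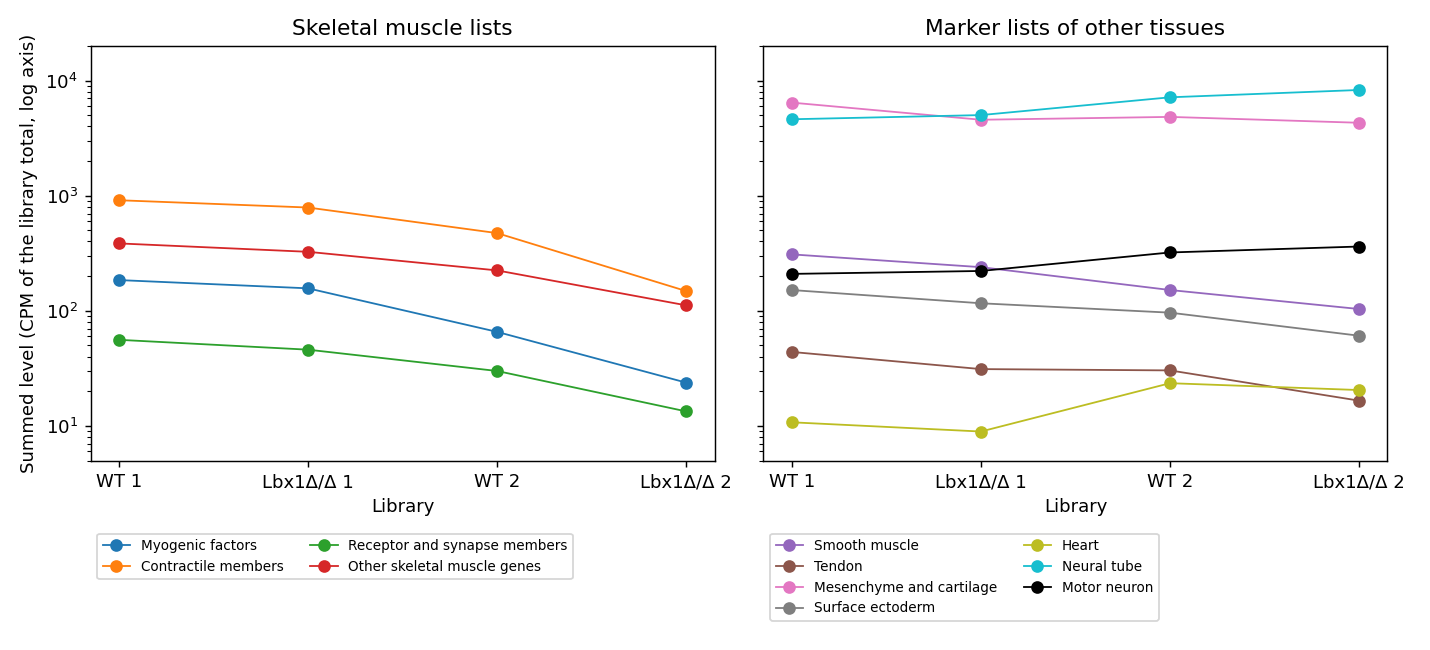
Summed levels of gene lists in the 4 libraries, in CPM on a log axis, with skeletal muscle lists on the left and marker lists of other tissues on the right. Contractile members run from 913 CPM in WT library 1 to 148 CPM in Lbx1Δ/Δ library 2, while neural tube markers run from 4612 to 8286 CPM, and the lines only join the libraries of a list.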

How the data were processed

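The authors deposited raw read counts per RefSeq transcript accession in headerless files, 1 per library, with no normalization. The submitters' processing notes name build mm9, TopHat2 2.1.1, featureCounts and edgeR. The annotation, the strandedness and the treatment of reads shared by transcripts were not given in the sources used here. Of 41411 accessions, 41218 were named from a RefSeq table of GRCm38, 97 from GENCODE, and 96 kept their accession. Counts were summed per symbol, which gave 24971 genes. GRCm38 was used for names and for the promoter sequences only.

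All genes were fitted at once with edgeR 4.0.16 (filterByExpr with its minimum count at 10 and its total at 15, TMM, glmQLFit and glmQLFTest, two-sided, Benjamini-Hochberg at 0.05), on genotype alone and on replicate number alone, over all 4 libraries. SE was taken as the absolute log2 difference over √F. Differences between single libraries used CPM of the library total with 0.5 counts added, and ratio intervals are Clopper-Pearson at 95%. The fits were tested on simulated counts. Replicates are pools of tubes from litters, and p-values of the genotype fit measure the spread between pools of the same label. In the number fit each group held 1 library of each label, so the spread within a number includes any difference by label. Alternatives were RLE and total scaling, DESeq2 1.42.0, no filter, a CPM filter, genes with 1 accession, a second term, and leaving out each library. The members and lists were chosen with earlier results of these data known. All members were named, with up to 6 genes by smallest p in each fit from the precursor and further muscle lists and up to 3 by level from other lists, while Gapdh and the heart markers at 0 were named after their values were seen. A precursor gene that the rule names is not reported here.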

Additional observations from a re-analysis of the deposited data

How the results depend on the processing

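By genotype label, 0 members were called under RLE scaling, scaling by library total, DESeq2, no filter on low counts, a CPM filter, single-accession genes or any left-out library, and no member changed direction under these apart from the left-out libraries. Leaving out a library turned the sign of 9 members without WT library 1, 1 without WT library 2, 2 without Lbx1Δ/Δ library 1 and 14 without Lbx1Δ/Δ library 2, where the lone library of a label is assumed to vary like the others. The log2 differences by label then ranged as follows: Actc1 −2.36 to 0.23, Cdh15 −1.61 to 0.39, Chrnd −1.55 to 0.76, Chrng −1.93 to 0.35, Des −2.45 to 0.22, Myf5 −1.71 to 0.29, Myf6 −6.50 to 1.49, Myh3 −2.23 to 0.16. Of the other members whose sign turned, the ranges were as follows: Myh8 −2.11 to 0.12, Myod1 −2.60 to 0.57, Myog −2.38 to 0.49, Neb −2.08 to 0.068, Rapsn −1.79 to 0.44, Ryr1 −0.58 to 0.31, Tnnc1 −2.01 to 0.17, Tnnc2 −2.07 to 0.39. The 6 members whose sign did not turn were Ttn (−7.28 to −0.11), Chrna1 (−2.09 to −0.10), Chrnb1 (−1.33 to −0.20), Myl1 (−1.81 to −0.11), Mylpf (−0.51 to −0.10) and Tnni2 (−1.56 to −0.05). The 0 counts of Myf6 and Ttn in Lbx1Δ/Δ library 2 make their lowest values depend on the prior count. With a replicate block, 92 genes were called by label (29 higher, 63 lower), among them 1 member, Myh3 (log2 −0.94, SE 0.21, edgeR adjusted p = 0.047), and Chrnd turned to −0.18. Lbx1 was also called (log2 1.88, SE 0.13, edgeR adjusted p = 1.2e-06). The labels do not state that the numbers pair the libraries, and the deviations of WT library 2 and Lbx1Δ/Δ library 2 from their label means correlated at 0.623 over 10757 genes, which are not independent. By number, the genes called ranged from 1 to 3917 when a library was left out, and no member changed direction under any alternative. The number differences had ranges over the left-out libraries of −2.71 to −0.95 for Actc1, −2.80 to −0.97 for Des, −3.06 to −1.56 for Myod1, −2.85 to −1.38 for Myog and −0.86 to −0.70 for Ryr1. Chrna1 was not called under scaling by library total (edgeR adjusted p = 0.0595), with single-accession genes (0.0504) or with a CPM filter (0.0578). DESeq2 did not call Actc1, Des, Myh3, Myh8, Tnnc1 and Tnnc2 (adjusted p = 0.123 to 0.160). With genotype as a second term 19 of 22 members were called, and 18 of 24 without the filter. The shares of all genes called in these fits are not given here, so the counts are not read as particular to the members. Depth limits Myf6, Mylpf, Tnni2 and Ttn most, with 33 counts or fewer in each library.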
